A study of Rattus norvegicus with 9 samples.

Results

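The Hippo pathway genes described here are Stk3, Stk4, Sav1, Lats1, Lats2, Yap1, Wwtr1, Tead1, Tead2 and Nf2, measured in the amygdala of ovariectomised rats with or without estradiol. The members were chosen by name: every non-control probe on the array whose gene name was one of these 10 symbols was used, and all 10 symbols were found, among 34912 gene names in all. They were carried by 18 of 45598 probes. The pathway was singled out with the differences of these same arrays already known, so the member values below are a description of these 9 rats, with no test of their own.

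The rats were females of the SHR strain, an inbred strain that develops high blood pressure, and all 9 lacked both ovaries, which were removed at 4 weeks of age. After a recovery of 1 week a pump under the skin delivered, for a month, either estradiol at 2 µg per day in polyethylene glycol (OV+E2, n = 5) or polyethylene glycol alone (OV, n = 4). The amygdala of both sides was taken at 9 weeks of age and hybridised on a 1-colour Agilent array, with 1 rat per array. No rat with ovaries and no other strain was among the samples used here, so the comparison was of estradiol replacement against its absence after ovariectomy. The whole dissected region was measured, so fewer cells of a type and less RNA per cell cannot be told apart in any value below.

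A level is given as log2 of the processed signal minus the log2 of the 75th percentile of its array, and a difference is OV+E2 minus OV on that log2 scale. Both groups were spread over 2 slides, with OV+E2 replicates 1 and 2 and OV replicates 1, 2 and 3 on the first, and OV+E2 replicates 3, 4 and 5 and OV replicate 5 on the second. Differences within the second slide therefore rest on OV replicate 5 alone for OV, and those within the first include OV replicate 3. OV replicate 3 stood apart. Its 75th percentile signal was 129.7, against 557 to 738 on the other 8 arrays, and 24225 probes were well above background on it, against 29052 to 31395 on the others. The lowest signal counted as well above background lay at a scaled level of −3.41 on this array and at −5.47 to −5.19 on the others, and the member differences are given with and without it. In the authors' deposited table the column of this rat also departed from its scanner file, with an SD of 1.00 for the log2 ratio, against 0.00328 to 0.0306 for the other 8 rats. The 66 written markers of 11 cell classes were all tested, and 63 of them were well above background on all 9 arrays, among them the neuronal genes Rbfox3 and Snap25 and the forebrain genes Gad1 and Lypd1.

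Hippo signalling is a kinase cascade that restrains growth. Stk3 and Stk4, known as MST2 and MST1, bind the scaffold Sav1 and phosphorylate Lats1 and Lats2, which in turn phosphorylate the coactivators Yap1 and Wwtr1 (also called TAZ) and keep them out of the nucleus. Unphosphorylated Yap1 and Wwtr1 enter the nucleus and bind TEAD transcription factors, and Nf2 (merlin) acts upstream, at the membrane, to promote the cascade. In the brain Yap1 is known mainly from astrocytes, neural progenitors and cells lining the ventricles, and much of the pathway's control is by phosphorylation, which an RNA array does not measure.

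Several members were read by more than 1 probe of 60 bases, and the probes of Stk3 and Lats1 did not give the same difference. The probe sequences are shown because the difference of Stk3 and of Lats1 depended on which probe was read. Why the probes differed was not tested. They are taken from the deposited array files and run 5′ to 3′, bases 31 to 60 for Stk3 and Lats1 and all 60 bases for Yap1, with the longest run of only C and T within the bases shown in capitals (the first of them where several are equally long, as in Lats1 XM_008758607). The Stk3 probes lie at chr7:70308307-70308366 (NM_031735) and chr7:70358905-70358964 (XM_008765459), both on the minus strand of rn4.
Stk3 NM_031735: ctaaaaaatgaaagcattagaaaaaggCTC
Stk3 XM_008765459: ttaaaatattcaTTCTCTCCCTCTCCCTCT
The Lats1 probes lie at chr1:2373540-2373599, chr1:2382396-2382455 and chr1:2385443-2385502, in the order in which they are written here.
Lats1 XM_008758607: ctgaCTTCTgtagcctccattactgtgtag
Lats1 NM_001134543, 5′ probe: cattttttaagaccattgaTTTCTCTagtg
Lats1 NM_001134543, 3′ probe: ctgttgtgtattgttcaatgacgTCCTgag
The Yap1 probes lie at chr8:4846155-4846214 and chr8:4806939-4806998 and belong to the same transcript.
Yap1 NM_001034002, 5′ probe: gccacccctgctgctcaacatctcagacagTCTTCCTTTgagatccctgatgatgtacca
Yap1 NM_001034002, 3′ probe: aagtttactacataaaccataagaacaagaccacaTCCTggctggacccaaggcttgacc
The run in the XM_008765459 probe of Stk3 is 18 bases long, against 5 bases as the longest run anywhere in the NM_031735 probe. Of 30215 tested probes 86, or 0.285%, hold a run at least as long, this Stk3 probe included. Of those 86, 66 were lower in OV+E2, with a median difference of −0.19, beside 15068 lower of all 30215. The run length was taken from the Stk3 probe with its difference already known, and a part of the run in that difference was not tested. The exon or untranslated region of each probe is not given in these sources.

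A probe entered the fit if Feature Extraction marked it well above background on 4 or more of the 9 arrays, which held for 15 of the 18 member probes and for all 10 genes. Of the 15, 9 were higher and 6 lower in OV+E2, with a median difference of +0.10, against +0.00107 over all tested probes, and 7 differed by less than 0.2. The member median was +0.06 without OV replicate 3, beside +0.00948 over all tested probes. With the normexp background correction (offset 50) the member median was −0.05, beside −0.11 over all tested probes. The OV+E2 and OV arrays did not overlap for 4 of the 15, beside 6.9% of all tested probes, a share from which nothing is read since the members were picked with this contrast known. These were 1 probe of Stk3, 1 of Yap1 and both NM_001134543 probes of Lats1, of which 3 were lower and 1 was higher in OV+E2, beside 4.02% of all tested probes lower and 2.88% higher with no overlap. The same 4 had no overlap when OV replicate 3 was left out, where the shares of all tested probes were 10.4% in all, 5.43% lower and 5.0% higher, and 4 had none in the authors' deposited table, where 8.54% of all tested probes had none. No member probe was saturated.

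**Figure D1:**
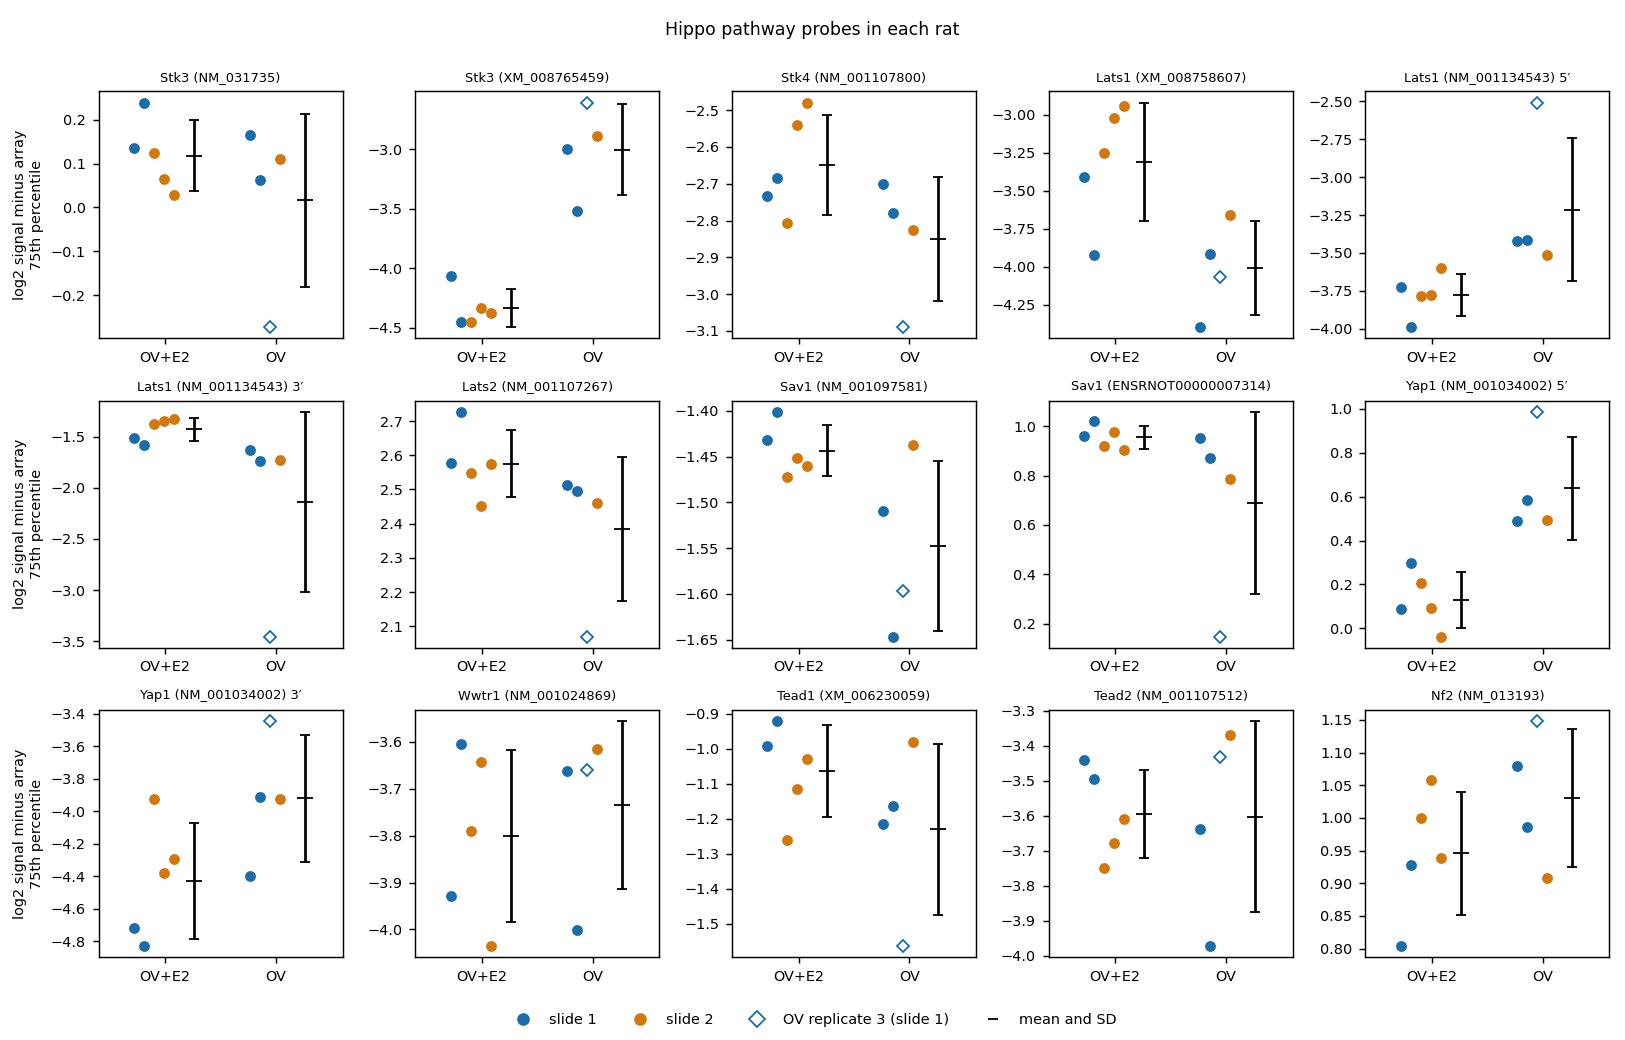
Scaled log2 level of each tested member probe in every rat, with OV+E2 left of OV in each panel, slide 1 in blue, slide 2 in orange, OV replicate 3 as an open diamond, and black bars for the mean and SD. The XM_008765459 probe of Stk3 and the 5′ probe of Yap1 have all OV+E2 rats under all OV rats, and OV replicate 3 lies far from the other OV rats for both NM_001134543 probes of Lats1.

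Nf2, the membrane-side regulator, was measured by a probe of NM_013193 at chr14:85415383-85415442. Its levels were 0.80, 0.93, 1.00, 1.06 and 0.94 in the OV+E2 rats and 1.08, 0.99, 1.15 and 0.91 in the OV rats. The groups overlapped, and the means were 0.95 ± 0.09 and 1.03 ± 0.11 (SD, n = 5 and 4), a difference of −0.08 with a standard error of 0.09. The difference was −0.05 without OV replicate 3, −0.21 within the first slide and +0.09 within the second. The second Nf2 probe, for XM_006251191, was well above background on 0 of 9 arrays.

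Stk3, the kinase MST2, gave different values on its probes. On the NM_031735 probe the processed signals were 747, 735, 729.8, 698 and 752 in the OV+E2 rats and 783, 581, 107.4 and 700.3 in OV replicates 1, 2, 3 and 5. Scaled levels were 0.13, 0.24, 0.12, 0.06 and 0.03 in OV+E2 and 0.17, 0.06, −0.27 and 0.11 in OV. The groups overlapped, with means of 0.12 ± 0.08 and 0.02 ± 0.20 and a difference of +0.10 (standard error 0.11), which was +0.00484 without OV replicate 3. Within the first slide it was +0.20 and within the second −0.04.

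On the XM_008765459 probe, 50598 bases away along the chromosome, the processed signals were 40.7, 28.5, 30.6, 33.2 and 35.5 in the OV+E2 rats and 87.4, 48.7, 21.3 and 87.5 in the OV rats. Scaled levels were −4.06, −4.45, −4.45, −4.33 and −4.38 in OV+E2 and −3.00, −3.51, −2.61 and −2.89 in OV, so every OV+E2 rat lay under every OV rat after scaling. The probe was well above background on all 9 arrays. Means were −4.34 ± 0.16 and −3.00 ± 0.38 (SD, n = 5 and 4), a difference of −1.33 with a standard error of 0.18, or 2.52-fold lower in OV+E2. Without OV replicate 3 the difference was −1.20, with normexp −0.81, within the first slide −1.22 and within the second −1.50. In the authors' deposited table the values were 39.4, 30.1, 30.05, 32.7 and 31.6 in OV+E2 and 82.6, 57.5, 100.6 and 88.9 in OV, again with no overlap. Among the 3767 tested probes within 0.5 of its mean level, the middle 50% of differences ran from −0.39 to +0.21, around a median of −0.08.

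The log2 ratio of the XM_008765459 probe to the NM_031735 probe cancels whatever scales an array as a whole. It was −4.20, −4.69, −4.58, −4.40 and −4.41 in the OV+E2 rats and −3.16, −3.58, −2.33 and −3.00 in the OV rats, with no overlap. The means were −4.45 ± 0.19 and −3.02 ± 0.52, a difference of −1.43, or −1.21 without OV replicate 3, and it was −1.42 within the first slide and −1.46 within the second. Over the 5086 genes with several tested probes, the median span between the lowest and the highest probe difference was 0.33, and 0.16 without OV replicate 3. For Stk3 it was 1.43, and 1.21 without that array, given as a description since Stk3 was known when the pathway was chosen. Another Stk3 probe, for XM_008765458 at chr7:70363280-70363339, had signals of 4.1, 3.8, 3.9, 3.7 and 3.9 in OV+E2 and 10.98, 13.0, 2.8 and 42.9 in OV. It was well above background in 0 of 5 OV+E2 rats and in 1 of 4 OV rats (OV replicate 5), so it was not tested and no fold is given.

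**Figure D2:**
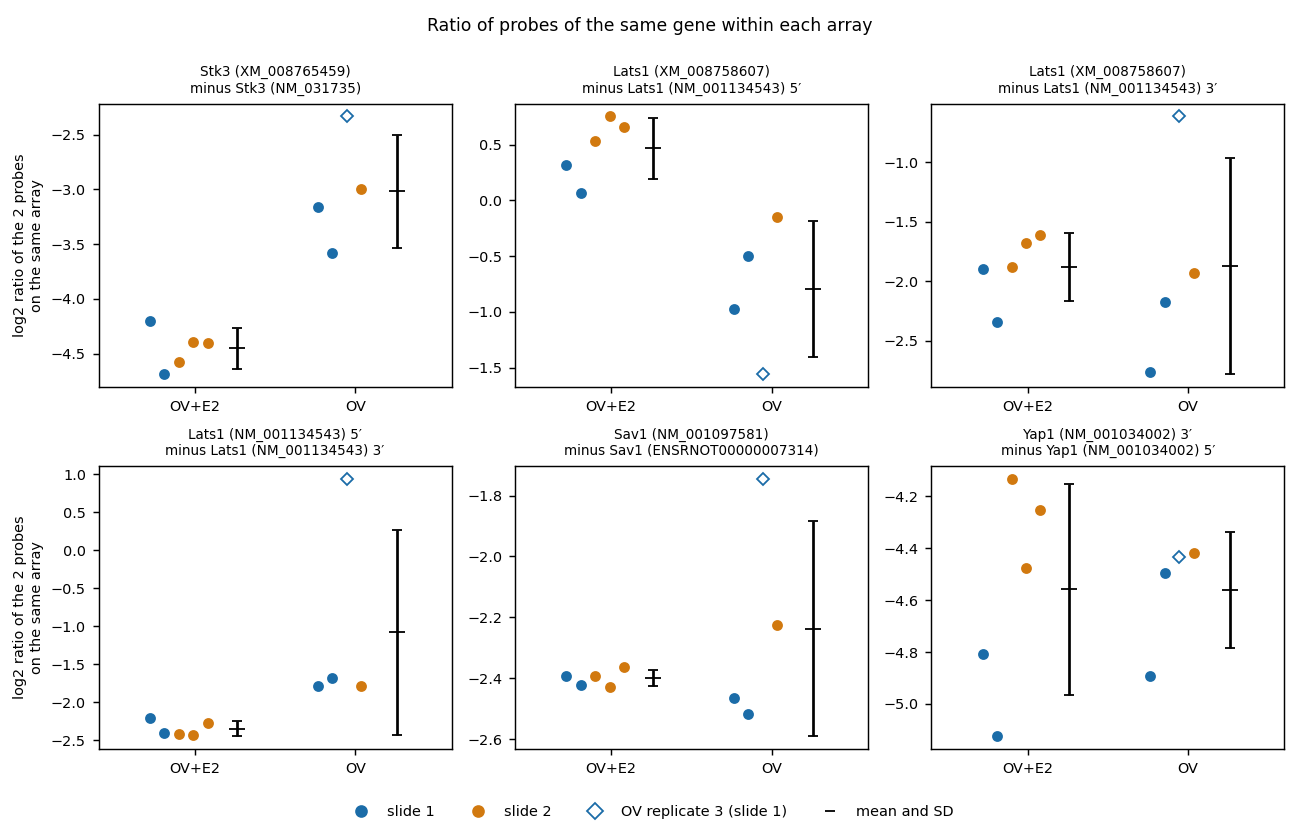
Log2 ratio of the dimmer to the brighter probe of the same gene in each rat, OV+E2 left of OV, slide 1 in blue, slide 2 in orange, OV replicate 3 as an open diamond. The Stk3 ratio lies between −4.69 and −4.20 in OV+E2 and between −3.58 and −2.33 in OV, while the Yap1 ratios of both groups overlap.

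Stk4, the paralogous kinase MST1, had levels of −2.73, −2.68, −2.81, −2.54 and −2.48 in the OV+E2 rats and −2.70, −2.78, −3.09 and −2.83 in the OV rats on its NM_001107800 probe at chr3:155095020-155095079. The groups overlapped. Means were −2.65 ± 0.14 and −2.85 ± 0.17, a difference of +0.20 (standard error 0.11), or +0.12 without OV replicate 3 and −0.15 with normexp. It was +0.15 within the first slide and +0.22 within the second. Sav1, the scaffold that joins these kinases to Lats, had 2 tested probes 753 bases apart, at chr6:92081477-92081536 and chr6:92082230-92082289. On the ENSRNOT00000007314 probe the levels were 0.96, 1.02, 0.92, 0.98 and 0.90 in OV+E2 and 0.95, 0.87, 0.15 and 0.79 in OV. The difference of +0.27 (standard error 0.16) was +0.09 without OV replicate 3, the OV rat at 0.15. On the NM_001097581 probe the difference was +0.10, +0.09 without that rat and −0.02 with normexp, and both Sav1 probes had overlapping groups.

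Lats1, the kinase that phosphorylates Yap1 and Wwtr1, was read by 3 tested probes. On the 5′ probe of NM_001134543 the levels were −3.73, −3.99, −3.79, −3.78 and −3.60 in the OV+E2 rats and −3.42, −3.41, −2.51 and −3.51 in the OV rats. Every OV+E2 rat lay under every OV rat, with means of −3.78 ± 0.14 and −3.21 ± 0.47 and a difference of −0.56 (standard error 0.21), or −0.33 without OV replicate 3. The difference was −0.74 within the first slide and −0.21 within the second.

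On the 3′ probe of the same transcript, 3047 bases away, the levels were −1.52, −1.58, −1.37, −1.35 and −1.33 in OV+E2 and −1.63, −1.74, −3.45 and −1.73 in OV. Here every OV+E2 rat lay above every OV rat. The means were −1.43 ± 0.11 and −2.14 ± 0.88, a difference of +0.71 (standard error 0.35), which came to +0.27 without OV replicate 3, where this probe was not well above background. It was +0.38 within the second slide, which does not hold that array. The authors' deposited table gave 230.1, 219.5, 254.1, 259.2 and 261.5 in OV+E2 and 212.5, 197.2, 198.1 and 198.4 in OV, a difference of +0.28.

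The XM_008758607 probe of Lats1 had levels of −3.41, −3.92, −3.25, −3.02 and −2.94 in OV+E2 and −4.40, −3.91, −4.07 and −3.66 in OV. The groups overlapped, and the difference was +0.70 (standard error 0.22), or +0.68 without OV replicate 3, where the probe was not well above background. With normexp and its offset of 50 the direction turned, to −0.03, beside a median of −0.11 over all tested probes. The processed signal of this probe on OV replicate 3 was 7.7. The log2 ratio of the 5′ to the 3′ probe of NM_001134543 was −2.21, −2.41, −2.41, −2.43 and −2.27 in OV+E2 and −1.79, −1.68, 0.95 and −1.78 in OV. It did not overlap between the groups with or without OV replicate 3, and the difference was −1.27 with it and −0.60 without it. The span over the 3 Lats1 probes was 1.27, and 1.01 without OV replicate 3. Lats2, the paralogous kinase, was measured at chr15:36720090-36720149 and had levels of 2.58, 2.73, 2.55, 2.45 and 2.57 in OV+E2 and 2.51, 2.50, 2.07 and 2.46 in OV. Its groups overlapped, and the difference of +0.19 (standard error 0.12) was +0.09 without OV replicate 3.

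Yap1, the coactivator that Lats kinases restrain, was lower in OV+E2 on both probes. On the 5′ probe the levels were 0.09, 0.30, 0.20, 0.09 and −0.04 in the OV+E2 rats and 0.49, 0.58, 0.99 and 0.49 in the OV rats. No OV+E2 rat reached an OV rat. Means were 0.13 ± 0.13 and 0.64 ± 0.24 (SD, n = 5 and 4), a difference of −0.51 with a standard error of 0.13, or 1.42-fold lower in OV+E2. It was −0.39 without OV replicate 3, −0.50 within the first slide and −0.41 within the second. In the authors' deposited table the values were 699.5, 806.5, 758.7, 701.8 and 641.1 in OV+E2 and 925.3, 984.0, 1002.6 and 927.4 in OV. Among 3256 tested probes within 0.5 of its level the middle 50% of differences ran from −0.12 to +0.21.

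On the 3′ probe, 39216 bases away along the chromosome and 277 bases away in the transcript, the Yap1 levels were −4.72, −4.83, −3.93, −4.38 and −4.29 in OV+E2 and −4.40, −3.91, −3.45 and −3.92 in OV. The groups overlapped. The means were −4.43 ± 0.36 and −3.92 ± 0.39, a difference of −0.51 (standard error 0.23), or −0.35 without OV replicate 3, where this probe was not well above background. The log2 ratio of the Yap1 probes overlapped between the groups and differed by +0.04 without OV replicate 3, and the span between their differences was 0.00122.

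Wwtr1 (TAZ), which binds the same TEAD factors, had levels of −3.93, −3.61, −3.79, −3.64 and −4.04 in OV+E2 and −3.66, −4.00, −3.66 and −3.62 in OV, with a difference of −0.07 (standard error 0.13), or −0.04 without OV replicate 3 and −0.33 with normexp. Tead1 had −0.99, −0.92, −1.26, −1.12 and −1.03 in OV+E2 and −1.21, −1.16, −1.56 and −0.98 in OV on its XM_006230059 probe at chr1:170703310-170703369, with a difference of +0.17 (standard error 0.13), or +0.06 without OV replicate 3. The second Tead1 probe, for NM_001198589, was well above background on 0 of 9 arrays. Tead2 had −3.44, −3.50, −3.75, −3.68 and −3.61 in OV+E2 and −3.64, −3.97, −3.43 and −3.37 in OV, with a difference of +0.01 (standard error 0.14), or +0.06 without OV replicate 3 and −0.26 with normexp. Wwtr1, Tead1 and Tead2 each overlapped between the groups. On OV replicate 3 the Wwtr1 and Tead2 probes were not well above background.

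**Figure D3:**
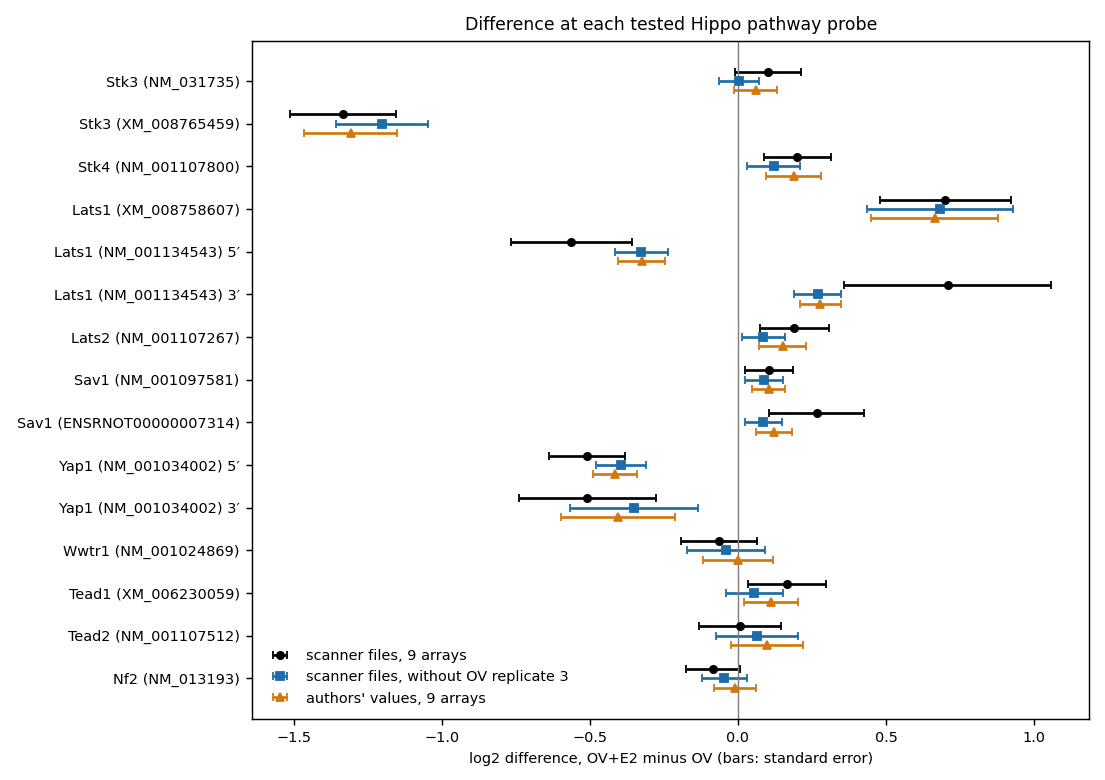
OV+E2 minus OV in log2 units for each tested member probe, with all 9 arrays, without OV replicate 3 and in the authors' deposited values. The XM_008765459 probe of Stk3 lies near −1.33, −1.20 and −1.31, and the 5′ probe of Yap1 near −0.51, −0.39 and −0.42.

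Beyond the members, 67 of 72 other pathway genes were tested in 4 lists, on the brightest probe of each gene. Vgll1, Vgll2 and Ankrd1 were too dim to be tested, and Tead4 and Arhgef17 were not matched to a probe by name. With limma over all 30215 tested probes, 0 of these 67 passed an adjusted p of 0.05, and the smallest was 0.430. Over all tested probes too, 0 passed, with a smallest adjusted p of 0.155, while 3134 had an unadjusted p under 0.05, which is 10.4% (968 or 3.2% higher and 2166 or 7.17% lower). Of the 67, 3 were higher and 1 was lower at that unadjusted level, or 5.97%. In direction alone 43 were higher and 24 lower, beside 15147 higher and 15068 lower of all tested probes. The 67 were read on their brightest probe, and the median difference varied with brightness. It was −0.08 among tested probes within 0.5 of the Tead2 level and +0.06 within 0.5 of the Nf2 level. In the authors' deposited values and without OV replicate 3 the count that passed was also 0, and with array weights 6 passed, beside 11.6% of all tested probes, namely Stk38, Amot, F3 and Ccn2 higher and Map4k4 and Rassf2 lower.

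Among 37 upstream regulators 24 were higher and 13 lower, with a median difference of +0.10, which was +0.02 without OV replicate 3. Stk38, an NDR kinase related to Lats, differed by +0.41 (limma adjusted p = 0.430), and its second probe by −1.06. Amot, a scaffold that holds YAP at the membrane, differed by +0.39 (limma adjusted p = 0.455), or +0.22 without OV replicate 3, and its second probe by −0.27. Strn3, a striatin of the complex that holds a phosphatase against the MST kinases, differed by +0.54, or +0.13 without OV replicate 3. Map4k4, a kinase that acts on Lats in parallel with the MST kinases, differed by −0.27. Rassf2, which binds the MST kinases, differed by −0.54, or −0.29 without OV replicate 3, and its second probe by −0.02. Map4k1 differed by −0.79, which was −0.27 without OV replicate 3. None of the 6 passed.

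Of 18 tested YAP and TAZ target genes 12 were higher and 6 lower, with a median difference of +0.08, or +0.02 without OV replicate 3. F3, tissue factor, differed by +0.68 (limma adjusted p = 0.469) and by +0.32 without OV replicate 3. Ccn2, the growth factor often used as a YAP readout, had means of 0.35 ± 0.15 in OV+E2 and −0.34 ± 0.77 in OV, a difference of +0.70 that was +0.32 without OV replicate 3. Nt5e, an ecto-nucleotidase, differed by +0.48 and by +0.18 without that array. On the lower side Asap1 differed by −0.44 and Igfbp3 by −0.27, which were −0.03 and −0.02 without OV replicate 3, and Rbms3 differed by −0.09, which turned to +0.04, while its second probe differed by +0.39. Of the TEAD partners 3 of 6 were tested. Tead3 differed by −0.12, which was +0.00529 without OV replicate 3. Vgll4 differed by −0.01, or −0.15 without that array, and Vgll3 by +0.02, which turned to −0.07, with −0.55 on its second probe.

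The 9 kinases related to Stk3 were 6 higher and 3 lower, with a median difference of +0.21, which was +0.07 without OV replicate 3, and none had an unadjusted p under 0.05. Stk24 differed by +0.29, or +0.13 without OV replicate 3, and its other probes by −0.18 and +0.26. Stk39, the kinase SPAK that acts on ion cotransporters, differed by +0.24, or +0.15 without that array. Slk differed by +0.17, and its second probe by −0.55. Tnik differed by −0.24, or −0.16 without OV replicate 3. Stk25 at −0.13 and Mink1 at −0.05 turned in direction there, to +0.03 and +0.12.

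**Figure D4:**
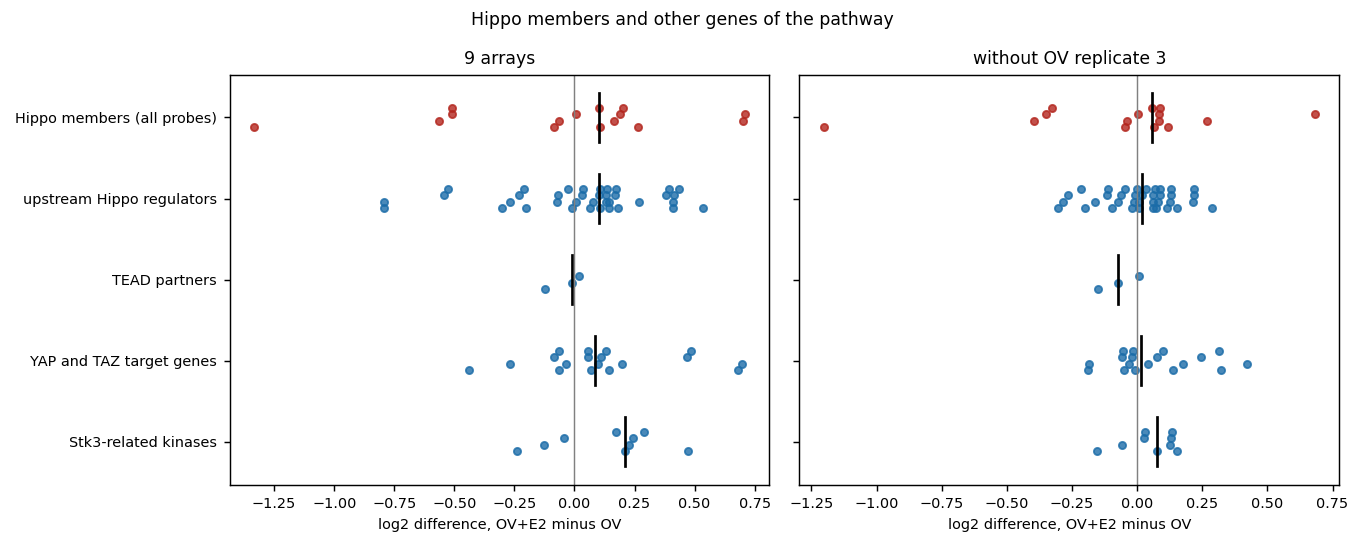
OV+E2 minus OV in log2 units for each tested gene of the other pathway lists, on its brightest probe. With all 9 arrays, each list has members on both sides of 0.

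Over the 8 arrays other than OV replicate 3, the genes whose pattern was most like that of the brighter Stk3 probe among 14972 genes were Hykk and Gab2 (Pearson r = 0.967 for each), Ccdc13 and Ddx59 (0.960 for each) and Fam210b (0.949). The scaled level of that Stk3 probe spans only 0.03 to 0.24 on these 8 arrays. With all 9 arrays the correlations were 0.240 for Hykk, 0.973 for Gab2, −0.00237 for Ccdc13, 0.833 for Ddx59 and −0.645 for Fam210b, and those genes were chosen as the highest among many.

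Summed markers of some other cell classes differed between the groups, and their part in the member values was not tested. The summed scaled signal of the 7 microglia markers was 25.9 to 29.97 in OV+E2 and 32.0 to 46.1 in OV, and that of the 4 red cell markers 99.6 to 139.6 in OV+E2 and 149.8 to 160.4 in OV, with no overlap for either. Without OV replicate 3 the microglia sums in OV were 32.0 to 38.4. Of the 7 microglia markers 4 were lower in OV+E2, Cx3cr1 (−0.74), Itgam (−0.58), Aif1 (−0.39) and P2ry12 (−0.25). The second probe of Itgam differed by +0.01. The other 3 were higher, C1qa (+0.04), Csf1r (+0.04) and Tmem119 (+0.10). The brightest red cell marker, Hba-a1, differed by −0.33 and by +0.20 on its second probe, Hbb by +0.11, and Slc4a1 and Alas2 were lower. For 6 oligodendrocyte markers the sums were 502 to 653 in OV+E2 and 597 to 1520 in OV, or 597 to 755 in OV without OV replicate 3. On their brightest probes 0 of 6 were higher. The second probes of Mbp and Mog differed by +0.25 and +0.09 and that of Mag by −0.17, and the other Mobp probes by −0.36 to +0.15. The 7 astrocyte markers gave 439.8 to 536.2 in OV+E2 and 445.5 to 569.2 in OV, with 2 of 7 higher, and the 7 endothelial markers 15.6 to 18.9 in OV+E2 and 18.3 to 27.9 in OV, with 2 of 7 higher. The 5 markers of choroid plexus and ependyma ranged from 254 to 475 in OV+E2 and from 11.5 to 749 in OV, with 4 of 5 higher. The sum of 11.5 was that of OV replicate 2 alone, where Ttr was at 3.42, against 8.41, 9.54 and 8.25 in the other OV rats. The 6 markers of the meninges ranged from 218 to 268 in OV+E2 and from 256 to 517 in OV, with 2 of 6 higher. The sums add linear values, so the brightest markers weigh most, here Ptgds, with mean levels of 7.87 in OV+E2 and 8.26 in OV. Ptgds differed by −0.39, Col1a1 by −0.62, Col3a1 by −0.47 and Col1a2 by −0.33. Dcn (+0.20) and Lum (+0.13) were higher, and each was at −0.23 without OV replicate 3. OV replicate 3 gave the highest OV sum in all 5 of these lists, and without it the OV maxima were 542, 20.01, 343 and 306 for astrocytes, endothelium, choroid plexus and meninges. The 6 neuronal markers summed to 139.7 to 150.9 in OV+E2 and 110.1 to 148.8 in OV, and the 8 forebrain markers to 76.9 to 80.4 in OV+E2 and 68.3 to 78.6 in OV. For 4 oligodendrocyte precursor markers the sums were 21.3 to 28.0 in OV+E2 and 21.3 to 29.5 in OV, and for 6 pericyte and smooth muscle markers 3.79 to 4.86 in OV+E2 and 4.11 to 5.44 in OV.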

How the data were processed

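RNA from the amygdala of 9 ovariectomised rats was measured on 1-colour Cy3 arrays, and the deposited scanner files give, for each spot, a background-subtracted intensity. Per the file headers it was made with Feature Extraction 10.7.3.1, protocol GE1_107_Sep09 and probe positions on rn4, while the submitters' processing notes name Feature Extraction 9.1. The authors' deposited table holds their own values, a linear signal with medians of 295.6 to 307.5, and how it was scaled is not stated in these sources. For every rat other than OV replicate 3 it followed the scanner signal up to a factor per array, with an SD of 0.00328 to 0.0306 for the log2 ratio. For those rats it is therefore not a second measurement.

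Of 62976 spots, 4259 control spots and the spots marked as outliers (253 to 517 per array) were left out, spots of a probe were averaged, and log2 minus the array's 75th percentile was taken. The test of OV+E2 against OV used limma 3.58.1 (lmFit, then eBayes; R 4.3.3) with no term but group, and p-values were adjusted by Benjamini-Hochberg over 30215 probes. Member errors are standard errors of this fit unless SD is written. On simulated data with 200 changed probes, 24% of 1.5-fold, 56% of 2-fold, 70% of 3-fold and 88% of 4-fold changes were called, and 6 unchanged probes. The simulated noise was independent between probes and equal on all arrays. OV replicate 3 stood apart in the real data, so these rates check the fit and do not give the power of this contrast. The number of arrays limits the precision. Each array is 1 rat, and the labels do not say whether replicate numbers pair the rats. Same-numbered rats correlated at 0.170, −0.0760, −0.0109 and 0.105, and rats of other numbers at −0.290 to 0.122, which does not settle it.

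Members and gene lists were chosen with earlier results of these data known. Among tested genes outside the marker lists, those named were all members, the 3 of smallest p in each direction in each list, and the 5 most like Stk3. Marker genes were named as examples of their lists. Other scalings, normexp with an offset of 50, other filters, array weights, slide and replicate blocks and leaving out each rat were tried.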

Additional observations from a re-analysis of the deposited data

Results flagged for a closer look

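In 30 groups of member values examined, 4 had a single rat far from the others, where chance alone would give about 5% of groups. On the 5′ probe of Lats1 NM_001134543 OV replicate 3 was at −2.51, with the other OV rats between −3.51 and −3.41. On the 3′ probe of the same transcript OV replicate 3 was at −3.45, with the other OV rats between −1.74 and −1.63. Lats2 was at 2.07 in OV replicate 3, with the others between 2.46 and 2.51. Wwtr1 was at −4.00 in OV replicate 2, with the others between −3.66 and −3.62. The first 3 come from the dim array of OV replicate 3.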

How the results depend on the processing

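Of 15 member probes, 9 kept their direction under every alternative run for them and 6 did not (Stk4, Sav1 NM_001097581, Lats1 XM_008758607, Wwtr1, Tead2 and Nf2). For example, normexp gave −0.15 for Stk4 and −0.03 for Lats1 XM_008758607. The Stk3 XM_008765459 difference was −0.81 with normexp and −0.97 with array weights, and ranged from −1.50 to −0.81 over its alternatives. The median of the upstream regulators was +0.21 with median scaling, +0.00839 with normexp, +0.0375 in the authors' values, +0.0345 with array weights, +0.0187 in the authors' values without OV replicate 3 (chosen after seeing the data), and +0.0184 to +0.12 on leaving out a rat. Over all probes, the count past an adjusted p of 0.05 was 9 without a filter on dim probes, 69 in the authors' values, 1 in those without OV replicate 3, 3499 with array weights, and 0 to 1 on leaving out a rat. Counts at an unadjusted p under 0.05, main value 3134, were 5655 in the authors' values, 9511 with array weights, and 2024 (without OV+E2 replicate 5) to 5330 (without OV replicate 1) on leaving out a rat. With a replicate block, which also left out OV+E2 replicate 4, that count was 1967 and Stk3 XM_008765459 was −1.33. Leaving out OV+E2 replicate 4 alone gave a count of 2177. The labels do not say whether the numbers pair the rats, so no reading of the lower count is given. At that level 30.9% were higher in the main setting, 47.6% under median scaling and 41.1% under quantile normalization. Median scaling moved the median of all differences to +0.11, normexp to −0.11 and no filter to −0.13. The causes were not tested. Signal over background limits the dim probes, above all on OV replicate 3.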
